A study of Mus musculus with 4 samples.

Results

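Skeletal muscle of mice labelled MnSOD-deficient (d/d) was compared with skeletal muscle of floxed control mice (f/f). The comparison rests on 2 of the 4 arrays of the series, chosen by their genotype and tissue labels, with 1 array in each group. The other 2 arrays hold heart RNA of the same genotypes. They enter the scaling, the floor and the choice of a gene's probe set, and their values are set beside those of muscle. The d/d mice (del/del) were bred, by their labels, by bringing the transgene MCK-Cre together with homozygous floxed MnSOD alleles (flox/flox). The f/f mice have the floxed alleles too and are labelled as the control. The MCK promoter, that of muscle creatine kinase, drives Cre in striated muscle, so the fibroblasts, vessels, nerves and blood cells of the tissue are not its target. The tissue is labelled only as muscle. Which muscle was used, how many animals a sample holds, their age and sex, and whether heart and muscle share an animal are not in the labels. With 1 array per group nothing measures the spread between animals, so each difference below describes a pair of arrays and carries no test.

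MnSOD, encoded by Sod2, sits in the mitochondrial matrix and converts the superoxide made by the respiratory chain into hydrogen peroxide. Skeletal muscle is built of fibres that differ in speed: fast fibres carry their own isoforms of myosin and troponin and rely on glycolysis, while slow fibres share several contractile isoforms with the heart and are rich in mitochondria. Around the fibres lie connective tissue, capillaries, nerve endings and resident macrophages, and the RNA of all of these is in the sample.

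The arrays gave 1 intensity for each of 45101 probe sets, of which 64 were controls. After the arrays had been scaled to a common 2% trimmed mean, signals under a floor of 7.51 were set to that floor, and 14256 genes lay above it on at least 1 of the muscle arrays. Differences are given as the log2 of d/d over f/f signal, so that 1 means a doubling and negative values mean that d/d muscle was lower. A gene was counted when the arrays differed by at least 2-fold, and a fold against a signal set to the floor is given as "at least". Where 2 signals are given for a gene, the first is that of d/d and the second that of f/f muscle unless stated otherwise. By this rule 376 genes (2.64% of those measured) were higher and 463 (3.25%) were lower in d/d muscle, around a median over all genes of -0.003. These percentages are the background against which the counts below are read, except for lists of mostly bright genes. For those lists the background is the lower shares at a signal of at least 100, given at the end of this paragraph. The median depended on signal: it was -0.03 for genes at 60 to 120 on the brighter array and 0.09 for the 597 genes above 1000. Higher genes made up 44.8% of the counted genes, and 31.2% when the deposited values were used without scaling, which moved the median of all genes to -0.09. Most counted genes were dim: 295 of the higher and 317 of the lower genes had a signal between 15 and 30 on the brighter array. Of the 11595 genes above the floor on both arrays 169 (1.46%) were higher and 252 (2.17%) lower. Of the 4777 genes that read at least 100 on the brighter array among these, 16 (0.335%) were higher and 44 (0.921%) lower.

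**Figure D1:**
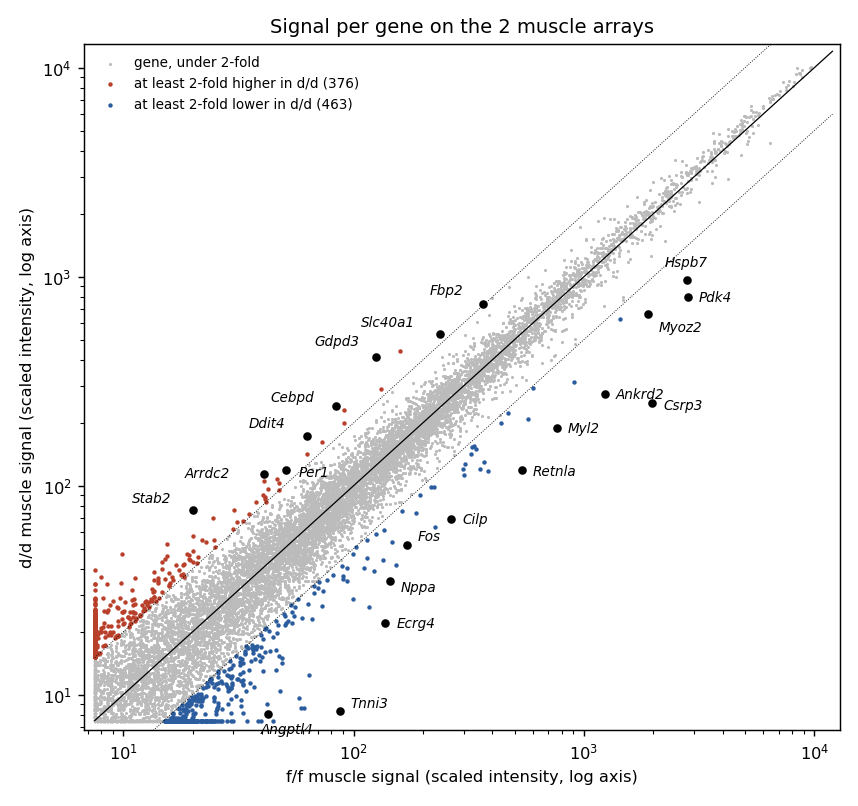
Scaled signal of each measured gene on the d/d muscle array (vertical, log axis) against the f/f muscle array (horizontal, log axis), with the line of equal signal, dotted lines at 2-fold, 376 higher genes in red, 463 lower genes in blue and named genes in black. Most coloured points crowd at the dim end near the floor, and the named bright genes below the band, such as Pdk4 at 800 and 2827, stand clear of it.

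Many genes are read by several probe sets, separate groups of probes on the same array, and their agreement is the one internal check these data offer. Over the 5207 genes with 2 or more probe sets above the floor on both arrays, log2 differences varied between probe sets of one gene with an SD of 0.404, which measures disagreement between probes and not variation between mice. Among the 376 higher genes, 132 had another measured probe set, and in 76 of these at least 1 other probe set pointed the other way. Among the 463 lower genes the same numbers were 137 and 76. All other measured probe sets passed 2-fold for 5 higher and 11 lower genes. Values of other probe sets are therefore given below wherever they exist and matter.

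Sod2 was measured by 4 probe sets. The brightest read 1732 in d/d against 1668 in f/f muscle, the next 1123 and 1236, the next 325 and 401, and the dimmest 45.5 and 61.6. The log2 differences were 0.06, -0.14, -0.31 and -0.44, with a mean of -0.21 and an SD of 0.21 over probe sets. The d/d array was thus lower on 3 of 4 probe sets, and on all but the dimmest the difference was smaller than the SD of 0.404 between probe sets. The labels do not place these probe sets inside or outside the deleted exons, so their values do not check the genotype.

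Both muscle arrays carried the defining genes of skeletal muscle near the top of the signal range. Skeletal actin, Acta1, read 9333 in d/d against 8635 in f/f muscle, muscle creatine kinase, Ckm, 9040 and 8826, and the fast troponin Tnnt3 10018 and 9629. The fast myosins Myh4 and Myh1 read 8225 and 6941 in d/d against 8053 and 6451 in f/f muscle, while on the heart arrays they read at most 10.3 and 8.16. The highest scaled value was 10328 on the d/d and 9717 on the f/f muscle array, so a difference between genes this bright may be compressed, which was not tested.

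Several genes that mark heart muscle were present at a small share of their level in the heart. Of 31 cardiac markers on the arrays 5 lay below the floor in both muscle samples. These include Myl7, Ryr2 and Nkx2-5, which read 2193, 1812 and 233 in f/f heart. The cardiac myosin Myh6 read 74.1 in d/d against 186 in f/f muscle, which is 1.03% and 2.60% of its f/f heart signal. Atrial natriuretic peptide, Nppa, read 34.8 and 144, or 0.95% and 3.94% of f/f heart, and the cardiac troponin Tnni3 8.30 and 86.8, or 0.16% and 1.64%. Nppb and Tbx20 were below the floor in d/d and read 39.7 and 10.1 in f/f muscle, 2.04% and 1.98% of f/f heart. Gata4, Tbx5 and Bmp10 went the other way, above the floor in d/d and below it in f/f muscle, at signals of 7.57, 18.8 and 9.16. Of the 26 cardiac markers with signal 19 were thus lower on the d/d array. The cardiac genes counted below are these same 26, so that count is not a separate result. The part of these markers in the results on slow fibre genes was not tested.

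Fast fibre genes differed little. Of 29 measured members 0 passed 2-fold in either direction, 27 were above 0 and the median was 0.13, against -0.003 over all genes. All 29 read at least 100 on the brighter array, and the 597 genes above 1000 had a median of 0.09. Under the alternatives in processing the fast fibre median ran from 0.026 to 0.15. The troponins Tnnc2, which binds calcium (7413 and 7005), and Tnni2, which inhibits the filament (10128 and 9717), the calcium pump Atp2a1 (9378 and 8366) and the calcium buffer parvalbumin, Pvalb (8542 and 7344), were all slightly higher in d/d muscle. Myosin Myh2, which marks the oxidative kind of fast fibre, was 1 of the 2 members below 0, with 4346 in d/d against 6433 in f/f muscle, a 1.48-fold difference. The other, the transcriptional cofactor Vgll2, read 375 and 476. At the other end stood Gpd1, glycerol-3-phosphate dehydrogenase, with 1001 in d/d against 573 in f/f muscle, a difference of 0.81, and 0.69 and 0.96 on the lowest and highest of its other probe sets.

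Slow fibre genes and cardiac markers were mostly lower in d/d muscle, unevenly among themselves. Of 25 measured slow fibre genes 7 were at least 2-fold lower and 0 higher, and 20 were below 0, with a median of -0.33. The thick filament, thin filament and calcium genes of this list held 1 each of the lower genes. Its 11 other members, not all of them contractile, held 4. Of the 26 measured cardiac markers described above 8 were at least 2-fold lower and 1 was higher, with a median of -0.51. Csrp3 and Pln are on both lists, and Csrp3 is also on the list of Z-disc and stretch-response genes below. Of the lower slow fibre genes, Myoz2 is counted again with the Z-disc genes and Hspb7 again with the heat shock proteins. Xirp1 is counted with both the cardiac markers and the Z-disc genes. The counts of these lists are thus not separate results. The ventricular and slow myosin light chain Myl2 read 189 in d/d against 764 in f/f muscle, a 4.04-fold difference. The slow troponin C, Tnnc1, read 98.6 and 216, and the slow myosin Myh7 55.1 and 107, just under 2-fold. Sarcolipin, Sln, a peptide that slows the calcium pump, read 41.6 and 152. Cardiac troponin T, Tnnt2, read 53.8 and 147 on its main probe set and 38.0 and 163 on another, and a dim one, below the floor in d/d muscle, read 6.23 and 8.93. Myh6 was 2.51-fold lower, and its other probe set differed by -0.82. Myom3, a myomesin that links thick filaments at the M-line, read 28.8 and 99.2, and embryonic myosin, Myh3, 8.55 and 26.8. The 1 cardiac gene past 2-fold in the other direction was the transcription factor Tbx5, which was at least 2.50-fold higher at a signal of 18.8.

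Other slow fibre genes were alike on the arrays. Slow troponin I, Tnni1, read 39.6 in d/d against 45.0 in f/f muscle, slow troponin T, Tnnt1, 52.0 and 51.4, the slow light chain Myl3 1327 and 1560, myoglobin, Mb, 8593 and 8191, and cardiac actin, Actc1, 2241 and 2265. Phospholamban, Pln, differed by -0.33. The slow calcium pump, Atp2a2, read 158 and 285, a difference of -0.85 that its other probe sets, from -0.52 to 0.03, did not match in size.

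**Figure D2:**
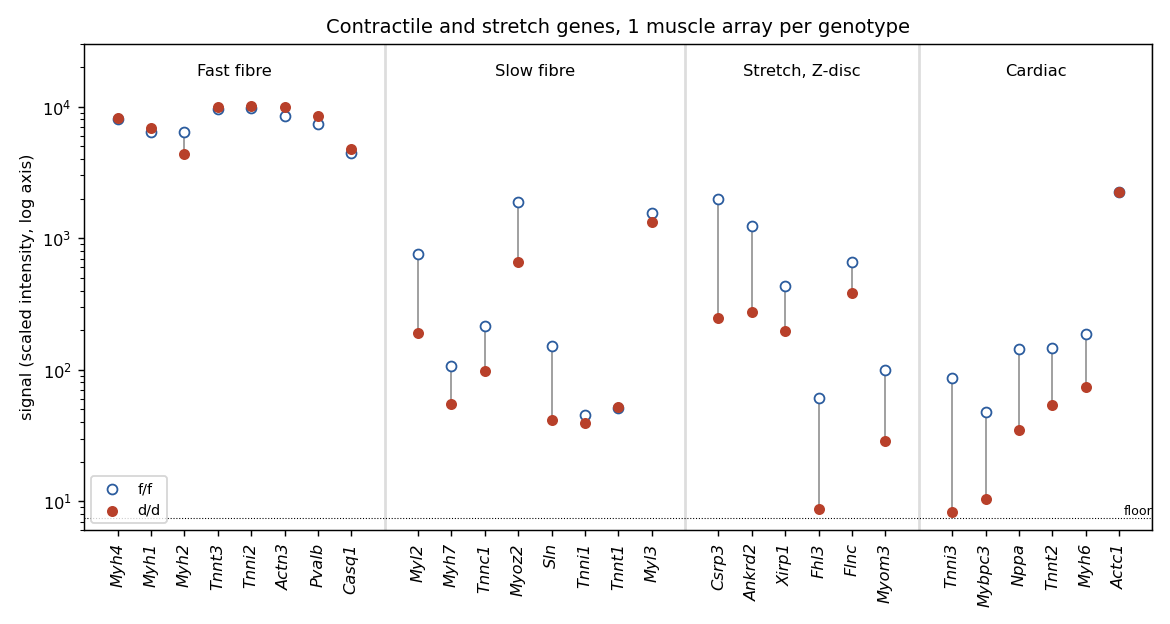
Scaled signal (log axis) of fast fibre, slow fibre, stretch and Z-disc, and cardiac genes, with an open point for the f/f and a filled point for the d/d muscle array, 1 array each, and a dotted line at the floor of 7.51. The fast fibre points nearly coincide except for Myh2, while Csrp3, Ankrd2, Fhl3 and Tnni3 have the f/f point far above the d/d point, and Tnni1, Tnnt1 and Actc1 do not.

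The Z-disc anchors the thin filaments and holds proteins that respond to stretch. Of 30 measured Z-disc and stretch-response genes 6 were at least 2-fold lower, 0 higher, and 21 were below 0, with a median of -0.18. Muscle LIM protein, Csrp3, had the largest difference of the list, with 249 in d/d against 1979 in f/f muscle, a 7.95-fold difference, and its f/f value was 41.5% of that in f/f heart. Ankrd2, an ankyrin repeat protein of the stretch response, read 275 and 1235, 4.50-fold lower in d/d muscle, and was below the floor on both heart arrays. Fhl3, a LIM protein, read 8.67 and 61.1 and was also below the floor on both heart arrays. Smtnl1, a smoothelin-like protein named after its values were seen, showed the same picture, with 313 and 905 in muscle and signals below the floor on both heart arrays. Myozenin 2, Myoz2, read 663 and 1897, and the actin-binding Xirp1 199 and 435. The fast fibre relative of Myoz2, Myoz1, read 5270 and 4641, and telethonin, Tcap, which caps titin, 5269 and 4955. Titin and nebulin, the giant proteins that set filament length, were close to 0, with Ttn at 0.12 and Neb at 0.14, although the other probe sets of Ttn ran from -1.23 to 0.13.

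Heat shock proteins hold unfolded proteins in solution and several are abundant in muscle. Of 25 measured cytosolic members 2 were at least 2-fold lower, 0 higher, and 21 were below 0, with a median of -0.29. The small heat shock protein gene Hspb7 was the brightest of those past 2-fold: its 3 probe sets read 970, 422 and 221 in d/d against 2794, 1540 and 623 in f/f muscle. The d/d array was lower on each of the 3, by 2.82-fold to 3.65-fold. Hsph1, which helps HSP70 exchange its nucleotide, read 219 and 431 on 1 probe set and 99.9 and 257 on the other. Hspa1b, an inducible HSP70, read 35.0 and 93.5 on its brightest probe set and 24.5 and 51.8 on another, but 25.4 and 24.4 on the remaining one. Its neighbour Hspa1a, which is nearly identical in sequence so that probes may read either gene, read 34.8 and 65.8. Hspa1l, an HSP70 gene of the same cluster that stands outside the list, read 26.2 and 116. The constitutive Hspa8 read 3007 and 3712, HSP90, Hsp90aa1, 262 and 416, and alpha B-crystallin, Cryab, 2936 and 4206, all lower in d/d muscle by less than 2-fold. Members above 0 were Hspb3, Dnaja2, Dnajb5 and Hspa2, the last at 48.0 and 32.1. Chaperones of the mitochondrion differed less, with Hspd1 at 1050 and 1155 and Hspa9 at 1384 and 1421, and the 20 chaperones of the endoplasmic reticulum had a median of 0.01.

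Heat shock factor binds inverted repeats of GAA, and the promoters of Hspa1b and Hsph1 are shown because both are inducible chaperones that were lower in d/d muscle. The sequences are the 250 bases before the transcription start from RefSeq (GRCm38.p6), for Hspa1b at chr17:34959239-34959488 and for Hsph1 at chr5:149636337-149636586, both on the minus strand and for Hsph1 the upstream one of 2 starts, with matches to GAANNTTC or TTCNNGAA in capitals.
Hspa1b: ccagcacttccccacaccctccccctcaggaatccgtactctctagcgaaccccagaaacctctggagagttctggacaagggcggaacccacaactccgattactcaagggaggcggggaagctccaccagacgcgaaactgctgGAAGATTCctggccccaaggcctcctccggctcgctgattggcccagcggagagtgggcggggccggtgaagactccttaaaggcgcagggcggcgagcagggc
Hsph1: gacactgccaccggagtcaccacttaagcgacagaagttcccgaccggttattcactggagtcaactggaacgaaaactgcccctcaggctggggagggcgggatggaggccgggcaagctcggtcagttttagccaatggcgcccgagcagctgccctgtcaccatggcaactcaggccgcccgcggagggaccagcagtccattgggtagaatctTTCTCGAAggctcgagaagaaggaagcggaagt
The match in Hspa1b lies 104 to 97 bases and that in Hsph1 33 to 26 bases before the start. Searched on both strands, either form of the motif was found in the same window for 9 of 21 measured heat shock genes with a promoter in the table (42.9%), 4 of 27 immediate early genes (14.8%) and 14.5% of all 27025 genes. A match is a run of letters and does not show binding.

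Collagen and matrix genes, made mainly by fibroblasts, were mostly lower in d/d muscle. Of 21 collagen genes 5 were at least 2-fold lower, 0 higher, and 19 were below 0, with a median of -0.64; their signals summed to 3487 in d/d against 6436 in f/f muscle. In heart their median was 0.99 and 10 of the 21 passed 2-fold upward, where 545 of all 13836 measured genes (3.94%) were higher and 584 (4.22%) lower. The difference between the tissues was not tested. The 7 fibrillar collagens, which form the tensile fibres, were all below 0, with a median of -0.92. Type I collagen Col1a2 read 630 and 415.6 in d/d against 1439 and 929.9 in f/f muscle on its 2 brighter probe sets. Type III collagen, Col3a1, read 776 and 1471, a difference of -0.92, and -1.44 on its other probe set. Type V collagens Col5a1, Col5a2 and Col5a3 differed by -0.50, -0.92 and -1.24. The basement membrane collagens Col4a1 and Col4a2, which are made as a pair, read 398 and 238 in d/d against 717 and 320 in f/f muscle. Type VI collagens, which surround each fibre, were alike in size of difference, at -0.64 for Col6a1, -0.61 for Col6a2 and -0.51 for Col6a3. The 2 collagens above 0, Col8a2 and Col4a3, read under 20 on both arrays.

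Genes that process and join the matrix were mostly lower as well. Of 67 measured members 7 were at least 2-fold lower and 1 higher, and 56 were below 0, with a median of -0.35. All 12 enzymes and chaperones of collagen processing were below 0, among them Lox, which cross-links collagen (69.7 in d/d against 128 in f/f muscle), Serpinh1, the collagen chaperone (156 and 242), P4ha1, a prolyl hydroxylase (43.7 and 83.2), and Pcolce, which helps to cut the propeptide (321 and 562). All 9 proteoglycans were below 0 as well, with biglycan, Bgn, at 147 and 272, fibromodulin, Fmod, at 722 and 1225, and decorin, Dcn, at 2058 and 2455. Cilp, a cartilage matrix protein, read 69.2 and 265, the brightest of the list past 3-fold, and elastin, Eln, 20.9 and 41.8, with -1.83 on its other probe set. Thrombospondin 1, Thbs1, read 27.6 and 52.8, and -1.87 on its other probe set, and Sparc 800 and 1478. The protease inhibitor Timp1 read 8.18 and 17.6, while Timp3 was higher in d/d muscle at 388 and 269. The laminins of the basement membrane had a median of -0.07. The 1 member at least 2-fold higher was the microfibril gene Mfap2, at 33.2 and 15.8. Versican, Vcan, was at least 2.07-fold lower on its main probe set and differed by 0.14 and 0.81 on others.

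Several tendon genes were lower too. Of 8 measured tendon markers 6 were below 0, 2 of them at least 2-fold lower, while 2 were above 0, the highest at 0.78. Tenomodulin, Tnmd, read 113 in d/d against 302 in f/f muscle, and the corneal and tendon proteoglycan keratocan, Kera, 44.3 and 134. Chondroadherin, Chad, a cartilage and tendon protein counted with the cartilage markers, read 63.2 and 225. Of 22 fibroblast and tendon markers 3 were at least 2-fold lower, none was as much higher, with a median of -0.41, and their summed signal was 8173 in d/d against 10955 in f/f muscle. Of the 14 measured fibroblast markers 13 were below 0, with a median of -0.38. The 1 past 2-fold was Pi16, at 39.1 and 123. The general fibroblast genes Pdgfra (124 and 162), Gsn (2798 and 3591) and Lum (403 and 438) were lower too, but differed by less than the collagen median. In bulk RNA, fewer cells of a type and less RNA per cell cannot be told apart, and how much tendon or fascia each sample held was not tested.

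**Figure D3:**
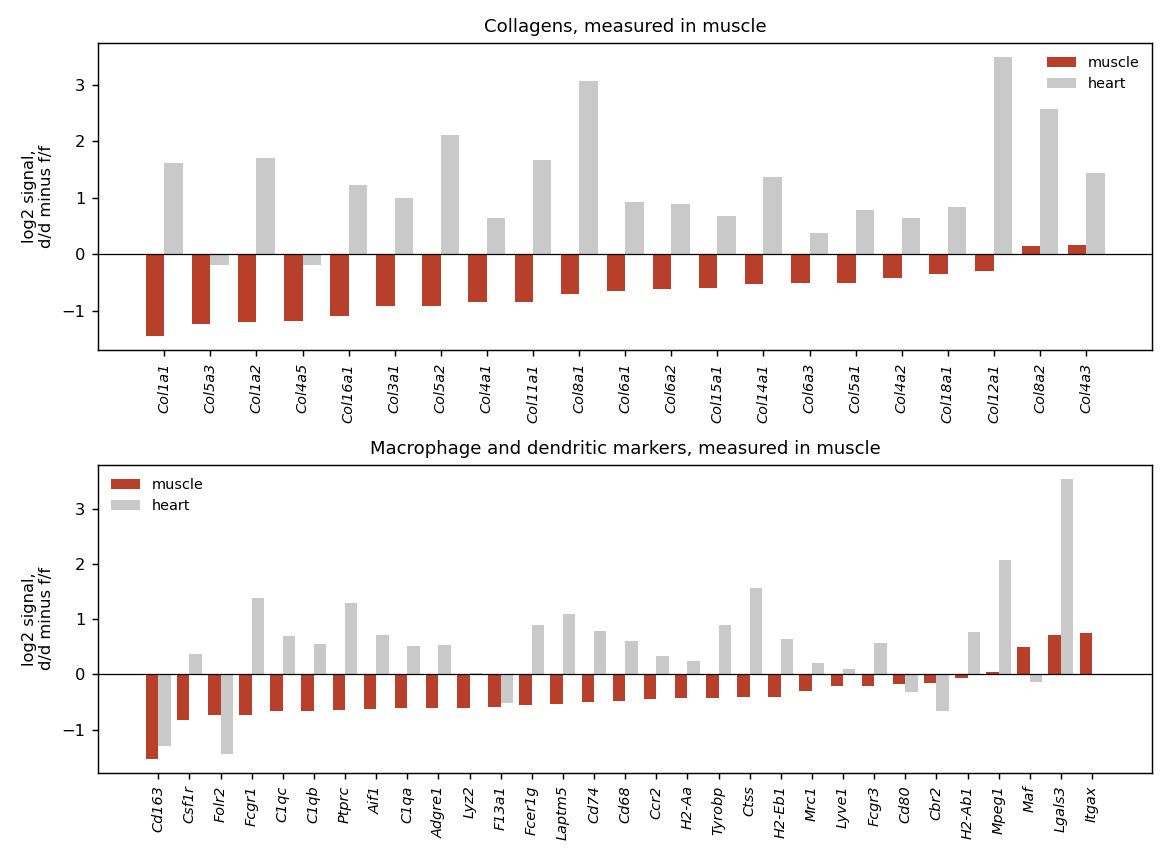
Log2 difference of d/d over f/f signal as bars from 0, red for muscle and grey for heart, for the 21 collagens (upper panel) and the 31 macrophage and dendritic markers measured in muscle (lower panel). In muscle 19 collagens and 27 macrophage markers lie below 0, and most heart bars lie above it; a gene at the floor on both heart arrays, such as Itgax, has a heart bar of 0, and a bar with 1 array at the floor is a lower bound.

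Macrophage genes were mostly lower, by modest differences. Of 7 measured resident markers 6 were below 0, although their summed signal was higher in d/d muscle, at 1244 against 1111. The 4 measured inflammatory markers went both ways, 2 above and 2 below 0, with a median of 0.27. Of 31 measured macrophage and dendritic markers 27 were below 0, 1 was at least 2-fold lower and 0 higher, with a median of -0.48 and summed signals of 3213 in d/d against 3833 in f/f muscle. The receptor Csf1r, through which macrophages receive their survival signal, read 194 and 344, with -1.38 and -0.90 on its other probe sets, and the complement genes C1qa, C1qb and C1qc differed by -0.62, -0.66 and -0.67. Cd163, the haemoglobin scavenger receptor of resident macrophages, read 23.0 and 66.1, and the general leukocyte gene Ptprc 36.3 and 56.8. Lgals3, a lectin of activated macrophages, went the other way with 88.0 and 54.0. Retnla, a secreted protein of alternatively activated macrophages and fat, read 118 and 536 and was 4.53-fold lower in d/d muscle. Lymphocyte genes were dim: 8 of 16 on the arrays lay below the floor on both, including Cd3d, Cd3e, Cd3g and Cd4, and Ighm, the immunoglobulin heavy chain, read 45.2 and 114 on the brightest of its 7 measured probe sets. The others ran from -1.17 to 0.44, so the direction for Ighm depends on the probe set. Among chemokine and cytokine genes 4 of 29 were at least 2-fold lower and 1 higher, around a median of -0.14. The higher one was the interleukin-6 receptor gene Il6ra, at least 2.60-fold, with 1.15 on its other probe set. The TWEAK receptor Tnfrsf12a was the brightest of the lower ones, with 98.4 and 224, and -1.49 on its other probe set, while the monocyte attractant Ccl2 was at least 2.73-fold lower.

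Immediate early genes, the transcription factors and regulators that cells switch on within minutes of a stimulus, were mixed. Of 34 measured members 5 were at least 2-fold lower and 2 higher, and the median was -0.16. Fos and Junb, partners in the AP-1 factor, read 52.1 and 14.2 in d/d against 171 and 48.9 in f/f muscle. Their partner Jun read 464 and 493, and Jund 140 and 171. The zinc finger factor Egr1 read 131 and 369 and the stress factor Atf3 11.1 and 33.2. Egr3 read 13.8 and 29.8, but differed by 1.56 on its other probe set, so its direction depends on the probe. Phosphatase gene Dusp1, usually induced with Fos, read 664 and 887, and the orphan receptor Nr4a1 854 and 899. Higher in d/d muscle were Cebpd, a factor induced by glucocorticoids and cytokines, with 241 and 83.5 on its bright probe set and 9.52 and 11.1 on a dim one, and the clock gene Per1 with 119 and 50.9. Gadd45g (281 and 147), Ccn1 (253 and 140) and Nr4a3 (99.9 and 59.1) were higher by less than 2-fold.

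The promoters of Fos and Junb are shown because these 2 partners were lower together, with the core of the cyclic AMP response element, TGACG, in capitals on the strand of the gene. They lie at chr12:85473640-85473889 on the plus strand and chr8:84978749-84978998 on the minus strand (RefSeq, GRCm38.p6, 250 bases before the start).
Fos: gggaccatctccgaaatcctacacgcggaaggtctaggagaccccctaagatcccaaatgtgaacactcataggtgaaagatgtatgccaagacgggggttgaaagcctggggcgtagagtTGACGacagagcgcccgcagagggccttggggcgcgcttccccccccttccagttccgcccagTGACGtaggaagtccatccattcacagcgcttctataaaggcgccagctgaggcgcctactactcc
Junb: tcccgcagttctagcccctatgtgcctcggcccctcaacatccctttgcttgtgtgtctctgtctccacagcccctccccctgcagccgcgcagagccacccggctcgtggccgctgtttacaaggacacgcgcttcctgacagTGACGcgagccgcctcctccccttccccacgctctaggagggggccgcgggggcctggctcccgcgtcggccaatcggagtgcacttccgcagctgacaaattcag
Fos holds the letters 129 to 125 and 66 to 62 bases and Junb 106 to 102 bases before the start. On either strand TGACG was found for 16 of 27 immediate early genes with a promoter in the table (59.3%), 10 of 21 heat shock genes (47.6%) and 19.8% of all genes.

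The circadian clock runs on a loop in which Clock and Arntl switch on the Per and Cry genes, whose products then hold Clock and Arntl back. Among 18 measured clock genes, centred on 0.14, 1 was at least 2-fold higher and 0 lower. Per1 read 119 in d/d against 50.9 in f/f muscle, Per2 41.8 and 24.3, with 1.37 on its other measured probe set, and the repressor Ciart 74.2 and 38.3. Arntl read 49.9 and 83.0, with -0.16 on its other probe set, and Clock 93.3 and 153, with other probe sets from -0.83 to 0.06. Nfil3, which opposes Dbp, read 30.8 and 54.0. The output genes Dbp (552 and 484), Nr1d1 (235 and 219) and Nr1d2 (1258 and 1202) were close between the arrays. The labels do not give the hour at which the mice were killed, and its part in these values was not tested.

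Several genes that glucocorticoids induce were higher beside Per1. Ddit4, which restrains mTOR, read 174 in d/d against 62.4 in f/f muscle, the immunophilin Fkbp5 151 and 93.5, with 0.90 on its other probe set, and the metallothionein Mt2 110 and 72.7. Klf15 (241 and 178) and Tsc22d3 (697 and 591) were higher by less, and Zbtb16 read 342 and 355. Of the 16 measured hormone-responsive genes 3 were at least 2-fold higher, 0 lower, and the median was 0.23. Above 0 were 11 and below it 5, the lowest at -0.50. In the heart pair the same 16 genes had a median of -0.24, with 2 at least 2-fold higher, 0 lower and 11 below 0. Cebpd, the highest of these at 1.53, is also counted among the immediate early genes, and Per1 among those and the clock genes. The counts of these lists therefore overlap. Per1 and Fkbp5 are shown with the E-box CACGTG in capitals, at chr11:69098699-69098948 on the plus strand and chr17:28486150-28486399 on the minus strand (RefSeq, GRCm38.p6, 250 bases before the start, for Per1 the upstream one of 2 starts, since the same window of the other, chr11:69099902-69100151, holds 0 matches).
Per1: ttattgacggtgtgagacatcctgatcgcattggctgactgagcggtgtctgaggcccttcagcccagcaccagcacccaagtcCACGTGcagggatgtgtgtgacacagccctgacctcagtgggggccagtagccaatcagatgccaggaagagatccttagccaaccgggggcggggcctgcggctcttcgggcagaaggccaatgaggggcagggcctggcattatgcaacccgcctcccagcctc
Fkbp5: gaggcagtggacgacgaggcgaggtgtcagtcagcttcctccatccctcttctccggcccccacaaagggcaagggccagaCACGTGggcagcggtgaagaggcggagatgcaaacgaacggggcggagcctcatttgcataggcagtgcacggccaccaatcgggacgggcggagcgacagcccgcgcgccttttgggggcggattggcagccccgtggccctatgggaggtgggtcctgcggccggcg
The E-box lies 166 to 161 bases before the start in Per1 and 169 to 164 bases in Fkbp5. It was found for 5 of 16 clock genes with a promoter in the table (31.2%), 8 of 27 immediate early genes (29.6%) and 6.86% of all genes. The E-box was searched as a motif of the clock. No motif of the glucocorticoid receptor was searched, and no share was taken over the hormone-responsive genes. The E-box reads the same on both strands, and its letters can overlap those of TGACG. The same stretch of Per1 also holds TGACG at 246 to 242 bases, left in lower case here.

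Genes that switch muscle from glucose to fatty acids were lower at a few points, while most others differed by less than 2-fold. Pdk4, the kinase that shuts pyruvate dehydrogenase in fasting, read 800 in d/d against 2827 in f/f muscle, a 3.53-fold difference, and Pdk1 read 303 and 505, although the other probe sets of Pdk1 lay between -0.10 and 0.23. The opposing phosphatase Pdp1 was higher in d/d muscle, at 527 and 306, with 0.40 on its other probe set, and Pdp2 was at least 2.41-fold lower at a dim signal. The dehydrogenase itself did not differ by more than 0.28 on any of its 5 measured subunits. Uncoupling protein 3, Ucp3, read 121 and 354 on 1 probe set and 149.6 and 346.6 on the other. Angptl4, a secreted inhibitor of lipoprotein lipase, read 8.06 and 42.5, close to the floor in d/d muscle. Bdh1, which starts the use of ketone bodies, read 117 and 383, and 22.0 and 57.7 on its other probe set. Pdk4, Ucp3 and Angptl4 are known targets of the fatty acid receptors PPARs, while other known targets differed by less than 2-fold: Cpt1a read 48.7 and 69.2, Plin2 120 and 152, Acadl 2561 and 2319, Slc25a20 657 and 656, and Acot1 was higher at 12.9 and 7.56. Of 32 measured genes of fatty acid uptake and oxidation 0 passed 2-fold, with a median of 0.04.

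The regulators above these genes differed by less than 2-fold with 1 exception. Ppargc1b read 153 in d/d against 268 in f/f muscle, Ppara 117 and 203, with -0.74 and -0.24 at the ends of its other probe sets, and Esrrg 120 and 196, with other probe sets from -0.84 to 0.43. Ppargc1a, the inducible coactivator of mitochondrial genes, was higher at 183 and 134, with other probe sets from -0.03 to 0.32. Esrra read 231 and 202 and Tfam, which packs mitochondrial DNA, 233 and 252. Among the 31 measured members the exception was the adipocyte receptor Pparg, which was at least 2.28-fold higher at a signal of 17.1.

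Nuclear genes for the respiratory chain were bright and nearly the same on both arrays. None of the 33 measured complex I subunits passed 2-fold, and their median of 0.06 was also that of complexes II and III (17 genes) and of complex IV with ATP synthase (34 genes), each with 0 past 2-fold. Without scaling these 3 medians lay just below 0, between -0.033 and -0.030. All 33, all 17 and 30 of the 34 genes read at least 100 on the brighter array and lay above the floor on both. Of all such genes 0.335% were higher and 0.921% lower, so a count of 0 is near the background. Within complex I the differences ran from -0.27 for Ndufb3 to 0.45 for Ndufs5. The iron-sulfur enzymes, which superoxide can damage, were alike in transcript: Sdhb read 5703 and 5440, Ndufs1 2189 and 2342 and the scaffold Iscu 1830 and 1504. The 73 measured mitochondrial ribosomal proteins had a median of 0.02, the widest being Mrpl33 at 794 and 398. The 38 genes of mitochondrial chaperones, proteases and dynamics had a median of 0.04, with the mitophagy kinase Pink1 at 3573 and 2673 and the autophagy receptor Sqstm1 at 2186 and 1544. Among 35 measured mitochondrial carriers Ucp3 and the glutamate carrier Slc25a22 (37.1 and 89.9) were at least 2-fold lower and 0 were higher, while the ATP carrier Slc25a4 read 8133 and 7529.

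Antioxidant genes differed little as well. Of 31 measured antioxidant enzymes 0 passed 2-fold, 23 were above 0 and the median was 0.08. Cytosolic Sod1 read 754 in d/d against 824 in f/f muscle, the extracellular Sod3 29.8 and 24.6, catalase, Cat, 645 and 666, and glutathione peroxidase 1, Gpx1, 468 and 450. The mitochondrial peroxide scavengers Prdx3 (1528 and 1386), Txn2 (678 and 603) and Gpx4 (2186 and 2175) were near 0. Cytosolic thioredoxin reductase, Txnrd1, read 527 and 426, with 0.53 and 0.94 at the ends of its other probe sets. Targets of NRF2, the transcription factor that oxidants release from KEAP1, had a median of 0.14 with 0 of 35 past 2-fold: Nqo1 read 80.6 and 67.6, Gclc 81.4 and 78.7, and the glutathione transferases Gstm1 and Gstm2 1349 and 601 in d/d against 883 and 444 in f/f muscle. Haem oxygenase 1, Hmox1, was at least 1.84-fold higher at a signal of 13.8. In the integrated stress response, a programme known to follow mitochondrial damage, 4 of 39 measured genes passed 2-fold upward and 1 downward, around a median of 0.10. Its mitokine Fgf21 lay below the floor on both arrays, its factor Atf4 read 956 and 778, Mthfd2 26.9 and 26.8, Asns 34.1 and 25.7, and Sesn2 and Psat1 passed 2-fold only on a probe set at the floor in f/f muscle and differed by -0.25 and -0.39 on the other. The other higher genes were Ddit4, given above, and Cbs at 24.2 and 11.8, with 0.55 on its other probe set. The lower gene was Atf3. Ddit4 is also counted with the hormone-responsive genes and Atf3 with the immediate early genes. Nmrk2, which makes NAD from nicotinamide riboside, read 1077 and 681.

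**Figure D4:**
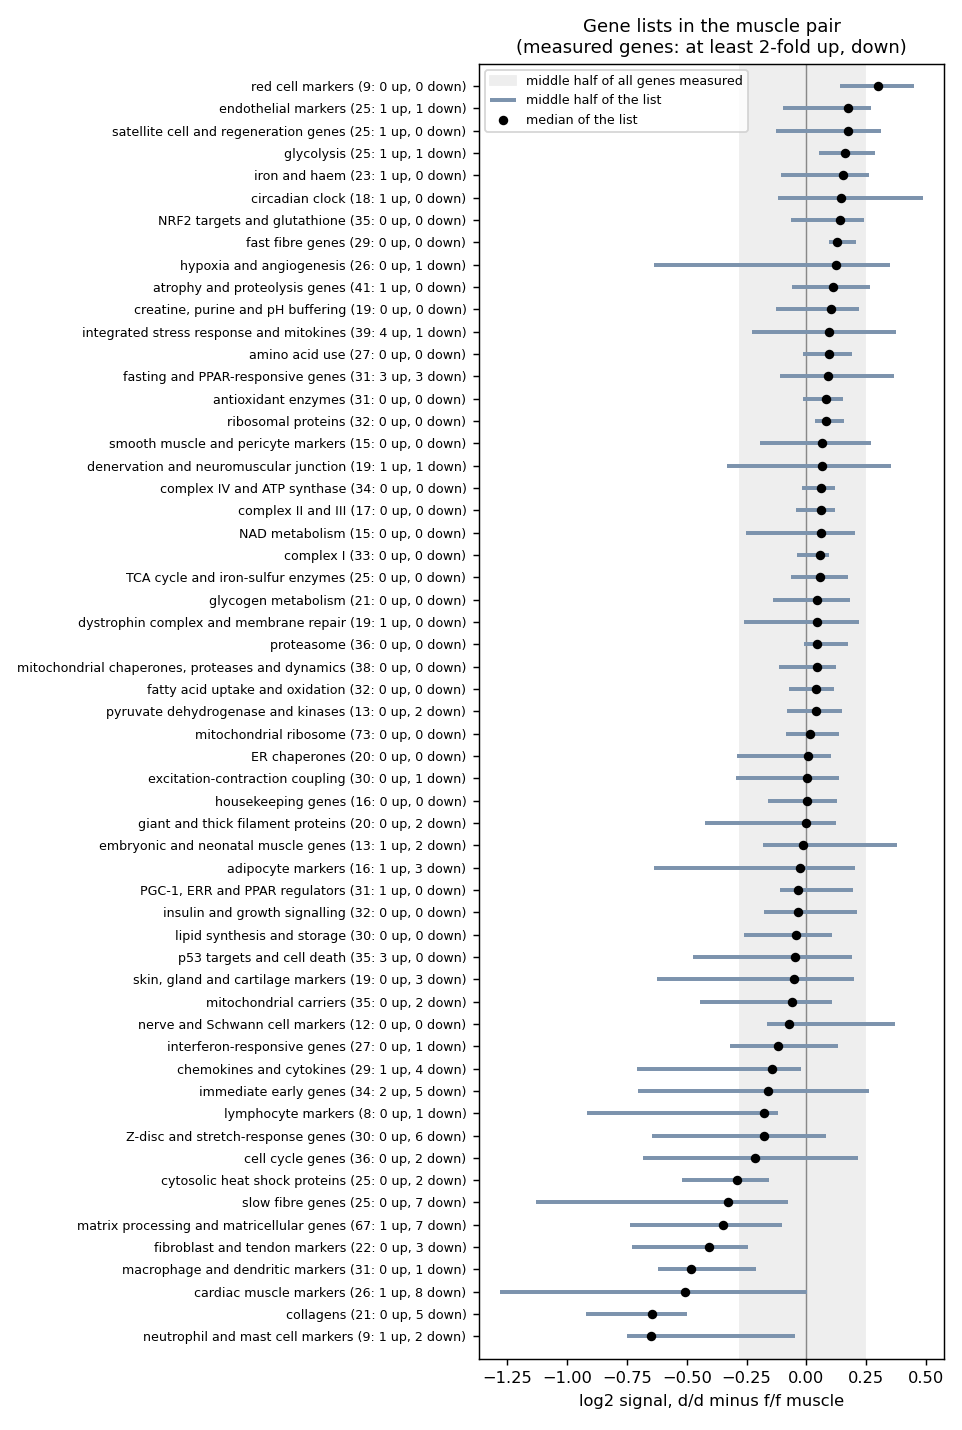
Median log2 difference of d/d over f/f muscle signal for each gene list (point) with its interquartile range (bar), the number of measured genes and those at least 2-fold higher (up) and lower (down), over a shaded band for the interquartile range of all measured genes, -0.28 to 0.25. The respiratory chain lists lie near 0 with short bars, and the medians of the heat shock, slow fibre, matrix, fibroblast, macrophage, cardiac, collagen and neutrophil lists lie left of the band. The red cell list, at 0.30, lies right of it.

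Most glycolytic genes read slightly higher in d/d muscle. Of 25 measured glycolytic genes 19 were above 0, with a median of 0.16 and 1 past 2-fold in each direction. Fbp2, the muscle fructose bisphosphatase that runs the reverse step, read 742 in d/d against 366 in f/f muscle. The lactate exporter Slc16a3 read 350 and 226, the glucose transporter Slc2a1 158 and 112, and the insulin-responsive transporter Slc2a4 1586 and 1422. Aldoc, at least 2.12-fold lower, was dim, while the muscle aldolase Aldoa read 9730 and 8809. In amino acid use 0 of 27 measured genes passed 2-fold by their brightest probe set, but Gpt2, the mitochondrial alanine transaminase, was higher on all 4 of its probe sets, at 897, 562.1, 603.8 and 384.6 in d/d against 474, 241.8, 307.6 and 200.7 in f/f muscle. Its cytosolic relative Gpt read 168 and 163.

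Markers of the other cell types and states were mixed. Endothelial genes centred on 0.18, 1 of 25 past 2-fold in each direction: the scavenger receptor Stab2 was higher at 76.5 and 20.2 and Stab1 2.56-fold lower, while the general markers Cdh5 (99.5 and 97.5) and Pecam1 (188 and 202) were alike. The 15 smooth muscle and pericyte genes had a median of 0.06 and 0 past 2-fold. Fat showed adiponectin, Adipoq, at 40.5 and 93.4 and resistin, Retn, at least 3.05-fold lower, but Fabp4 at 3038 and 2651. Satellite cell genes had a median of 0.17, with Pax7 at 12.9 and 9.51, Myod1 at 70.9 and 88.0, and Hey1, a Notch target, past 2-fold at 35.3 and 16.5. At the nerve contact, 1 of 19 measured denervation and junction genes was at least 2-fold higher and 1, Sln, lower, around a median of 0.06. The higher one, the factor Runx1, read 28.1 and 13.3, with other probe sets from -1.05 to 0.29. The acetylcholine receptor genes Chrna1 and Chrne were higher at 101 and 49.8 in d/d against 66.9 and 26.9 in f/f muscle, the agrin receptor Lrp4 was lower at 19.9 and 39.4, and the fetal subunit Chrng lay below the floor on both arrays. The atrophy ligases Trim63 (1194 and 1145) and Fbxo32 (1053 and 937) were alike. Oxygen-responsive genes had a median of 0.13, with Egln3, an oxygen sensor, lower at 142 and 322, and -0.73 on its other probe set. Iron export gene Slc40a1, ferroportin, read 529 and 238 on 1 probe set and 192.0 and 93.2 on the other, higher in d/d muscle on both, whereas ferritin, Fth1, read 5610 and 4798. Of 36 measured cell cycle genes 2 were at least 2-fold lower, Rrm2 and Cenpa, and both were higher on their other measured probe sets, Cenpa at 0.43. The 16 housekeeping genes had a median of 0.00 and the 32 ribosomal protein genes one of 0.08, with 0 past 2-fold in either. Red cell genes had a median of 0.30, 7 of 9 above 0 and 0 past 2-fold, against a median of -0.16 in the heart pair: Bpgm, which makes the haemoglobin ligand bisphosphoglycerate, read 470 and 382, the haem enzyme Alas2 48.8 and 35.7, and the globin Hbb-b2 15.5 and 18.9 on a probe set that went the other way from its second one, which was higher in d/d muscle.

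Agreement between probe sets gave a shorter list, with genes outside these groups. The probe sets above the floor on both arrays were all at least 1.5-fold higher for 41 of 5207 genes (0.787%) and at least 1.5-fold lower for 65 (1.25%). Among the higher ones Depp1, a target of the FOXO factors, read 290 and 232 in d/d against 132 and 82.5 in f/f muscle on its 2 probe sets. Mpp3, a scaffold protein, read 230 and 90.7 on the bright probe set and differed by 0.77 on the dim one. The growth factor-binding protein Igfbp3 differed by 0.96 and 1.04, the glucose transporter Slc2a3 by 0.94 and 0.90, the signalling adaptor Tirap by 1.17 and 0.67, and methionine synthase, Mtr, by 0.79 and 1.13. The actin-binding Dbn1, the sterol enzyme Mvd, the protease Ctse, the cadherin Celsr2, the mucin Muc20 and Igsf3 were also named by this rule, with Slc40a1, Per2 and Gpt2. Among the lower ones, Cap1, an actin regulator, read 15.3 and 8.67 in d/d against 47.2 and 27.6 in f/f muscle, and St3gal5, which makes the ganglioside GM3, differed by -0.87 and -1.79. Gbp6, an interferon-induced GTPase, differed by -1.46 and -0.89. The inhibitor of differentiation Id2 differed by -0.77 and -1.60, and Pdlim1, a Z-disc adaptor, by -1.18 and -1.15. Each of these last genes had 1 further probe set that lay below the floor on at least 1 array and stood at 0.08 for Id2 and 0.64 for Pdlim1.

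**Figure D5:**
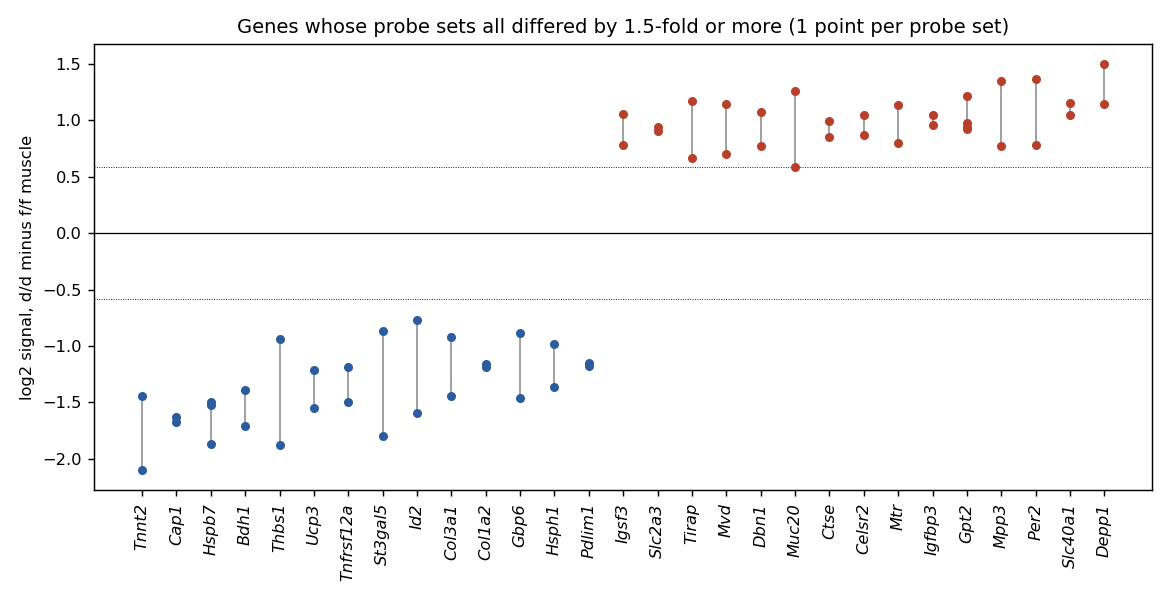
Log2 difference of d/d over f/f muscle signal for genes whose probe sets above the floor on both arrays all differed by at least 1.5-fold the same way, 1 point per probe set, joined by a line within a gene, with dotted lines at 1.5-fold. The points of Cap1, Col1a2, Pdlim1, Slc2a3 and Igfbp3 lie close together, while those of Thbs1, St3gal5 and Id2 lie far apart on the same side of 0.

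Brightness gave another view. Among bright genes, the larger ratios above 1 belonged to Gdpd3, a lysophospholipase D (415 in d/d against 125 in f/f muscle), Arrdc2, an arrestin-domain protein (113 and 40.8), Rasd2, a small GTPase (105 and 40.7), the glucose transporter Slc2a8 (107 and 46.4), the cold-inducible RNA-binding protein Cirbp (162 and 72.6) and the lysosomal thioesterase Ppt2 (199 and 91.2). Kpnb1, an importin, read 441 and 159 on an x-type probe set, whose probes can match other transcripts, but its other 3 probe sets lay between -0.23 and -0.16. Rprd2 likewise read 142 and 62.4 on 1 probe set while its other measured probe sets lay between -0.61 and 0.02, and Rbm14 read 103 and 47.4 with others from -0.19 to 0.76. Among bright genes with lower signal in d/d muscle, Ecrg4, a secreted peptide precursor, read 22.1 and 137, with -1.24 and -0.48 on its other probe sets. Lower bounds at dim signal named Anks1, Med11 and Dus2 as at least 5.95-fold, 4.59-fold and 3.99-fold lower, and Zdhhc12, Fbxo10 and Plxnb1 as at least 5.28-fold, 4.21-fold and 3.87-fold higher. The other probe set of Plxnb1 stood at 0.27, and a lower bound on a single dim probe set is the weakest kind of value given here.

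RNA quality can be read from control probe sets at both ends of a transcript, since broken RNA loses its 5′ end. The 3′ to 5′ ratio was 1.11 on both arrays for beta-actin and 0.855 in d/d against 0.869 in f/f muscle for the Gapdh control. It was lower in d/d muscle for pyruvate carboxylase, 2.76 against 5.67, and for the transferrin receptor, 3.15 against 4.83, and higher for the 18S ribosomal RNA, 0.657 against 0.549. The 5′ probe sets of pyruvate carboxylase (30.6 in d/d and 20.7 in f/f) and of the transferrin receptor (23.3 and 16.6) were dim. Their middle probe sets were also dim and went the other way, at 19.4 and 30.2 and 29.8 and 38.3 for the first and 12.1 and 20.8 for the second. The part of RNA quality in the differences above was not tested.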

How the data were processed

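Per the labels, RNA of 1 d/d and 1 f/f skeletal muscle sample was measured on mouse expression arrays, beside 1 d/d and 1 f/f heart sample. The deposited tables hold 1 intensity per probe set on a linear scale; for the step from scan to intensity, the authors' software and settings are not given in the sources used for this work. Each array was scaled to the mean of the 2% trimmed means of the arrays, signals under a floor of 7.51, the mean of the arrays' 40th percentiles, were set to it, and the log2 difference of d/d over f/f was taken. A gene was represented by its brightest probe set, the one with the highest mean log2 signal over the muscle and heart arrays together. This need not be the brightest in muscle alone. Probe sets were named through GEO's platform annotation, with symbols updated from RefSeq by gene ID (34945 with 1 symbol, 932 with several and 9160 not listed, of 45037). With 1 array per group no test was possible. Named genes were Sod2, members of the 58 gene lists, the 15 largest differences per direction that all probe sets shared, the 15 largest per direction at a signal of at least 100, and, per direction, the 5 largest folds against the floor. The members and lists were chosen with earlier results of these data known. Of the 1434 listed genes on the arrays 150 were on more than 1 list, so counts of different lists are not independent. Columns without a sample numbered 0. Trimmed means before scaling were 48.2 for d/d and 51.4 for f/f muscle, and 60.6% and 60.3% of probe sets lay above the floor; the number of arrays limits the precision. The scripts were tested on simulated data. Alternatives changed the floor, the scaling (none, quantile), a loess on signal, the probe set rule and the fold. Python 3.11.15, numpy 2.4.6, pandas 2.3.3, statsmodels 0.14.6 and matplotlib 3.10.9 were used.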

Additional observations from a re-analysis of the deposited data

Results flagged for a closer look

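Several results pointed one way in muscle and the other way in heart, and the difference between the tissues was not tested, since each genotype has 1 array per tissue. The collagens had a median log2 difference of -0.64 in muscle and 0.99 in heart, the fibroblast and tendon markers -0.41 and 0.86, and the macrophage and dendritic markers -0.48 and 0.56. Within the last list the resident markers did not differ in direction, with medians of -0.31 in muscle and -0.49 in heart, where 6 of 8 were below 0. Cd163, one of them by its role, stood at -1.53 in muscle and -1.30 in heart. Among single genes, Cilp stood at -1.94 in muscle and 3.95 in heart, Ecrg4 at -2.64 and 2.61, Chad at -1.83 and 1.11, Pi16 at -1.65 and 1.12, Col1a2 at -1.19 and 1.70 and Tnfrsf12a at -1.18 and 1.75. Slc40a1 went the opposite way, at 1.15 in muscle and -1.16 in heart. Some other named genes differed by at least 2-fold in the same direction in both tissues. Pdk4 stood at -1.82 in muscle and -1.16 in heart, Fos at -1.71 and -2.21, and Retnla at -2.18 and -2.41. Angptl4 stood at -2.40 and -1.69, Ucp3 at -1.55 and -3.75, Cebpd at 1.53 and 1.17, and Ddit4 at 1.48 and 1.12.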

How the results depend on the processing

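No paired analysis was possible because each group has 1 array and the labels give no replicate numbers. The number of higher genes was 376 as reported, 56 with the floor at the 60th percentile, 204 without scaling and 46 at 3-fold. The number of lower genes was 463, and 107 with the higher floor and 69 at 3-fold. With the floor value added to every signal instead, 406 genes were higher and 452 lower, of which 196 and 242 were among the genes counted as reported. Of 398 values for 57 list medians under the alternatives, 396 moved by less than the SD of 0.404 between probe sets. The exceptions were the lymphocyte markers, at -0.78 without scaling, and the neutrophil and mast cell markers, at -0.052 with the higher floor. Medians close to 0 did change sign: 26 lists did so under at least 1 alternative, 19 of them without scaling, and all 26 had a median of at most 0.102 in size as reported. Of 886 values for 129 named genes, 73 moved by more than 0.404 with the same sign and 11 more, all for genes past 2-fold as reported, changed sign. The named genes that moved by less under every alternative numbered 76. Among the lower heart-type and other genes, Angptl4 ranged from -2.53 to -1.17, Nppb from -2.50 to -1.07, Fhl3 from -2.90 to -1.69, Tnni3 from -3.47 to -2.20 and Mybpc3 from -2.30 to -1.34, while the higher Cebpd ranged from 0.65 to 1.53. With the median over probe sets the sign changes were Bad at -0.0054, Egr3 at 0.22, Kpnb1 at -0.18, Rprd2 at -0.054, Rrm2 at 0.66, Runx1 at -0.094 and Vcan at 0.14. Without probe sets that can share sequence with other transcripts they were Kpnb1 at -0.16, Psat1 at -0.39, Rprd2 at -0.074 and Rrm2 at 0.66. The median takes the middle of a gene's measured probe sets, which can lie between them. Leaving out the shared probe sets puts another probe set in the place of the brightest one. Sod2, at 0.06 as reported, was at -0.22 with the median over probe sets, -0.037 without scaling and -0.0085 with loess. Signals close to the floor limit the counts, and without replicate arrays no difference here can be set against the spread between animals.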
